A study of Mus musculus with 9 samples.

Results

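The miRNA signal of the hippocampus of saline-treated control mice was described on 3 of the 9 microarrays of the series, taken by their treatment label. The 3 arrays, control replicates 1, 2 and 3, held RNA of the hippocampus of male C57BL/6 mice obtained at about 8 weeks of age. These mice received saline by oropharyngeal aspiration every other day for 4 weeks and were killed 18 h after the last dose, and the study counts 3 mice in a group. The other 6 arrays came from mice given PM2.5, fine airborne particulate matter, at 1 or 5 mg/kg in saline, and they enter no value below. The labels do not say which steps, from dissection to hybridisation, were done separately for each mouse, so the spread between arrays may hold animal and technical variation together.

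miRNAs are short RNAs that guide Argonaute proteins to messenger RNAs, mostly through the seed, bases 2 to 8 counted from the 5′ end, and thereby lower the output of those messages. Each is cut from a hairpin precursor, and either arm of the hairpin, 5p or 3p, can be kept while its partner is degraded. In hippocampus the neuronal miRNAs miR-124, miR-9, miR-128 and miR-132 and the widely expressed let-7 family are well known, and many miRNAs lie in genomic clusters or inside introns of other genes.

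The arrays carried 1247 mouse miRNA entries. Each entry was measured by 40 spots, spread over 1 to 4 probes that pair with a stretch of the mature sequence. The level of a miRNA is the background-corrected signal, in intensity units, averaged over the spots of a probe and summed over its probes. Its share is that sum as a percentage of the sum over all 1247 entries of the array. Signals of different miRNAs come from different probes, so the order given here is an order of brightness and not of molecule numbers. On the 3 arrays 420, 429 and 410 entries were called detected, the summed signal was 814700, 779961 and 743806 units, and no spot was saturated.

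The mature sequences of the brightest entries follow, to show the seed that goes with each name. They are RefSeq sequences (GRCm38.p6), 5′ to 3′, with the seed in capitals. The lines run in the order of the signal, and the last ones add miRNAs that the sections on arms, spread and the study's own candidates turn on.
miR-6366: aGCUAAGGggcccggggagcca
miR-3963: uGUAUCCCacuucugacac
miR-128-3p: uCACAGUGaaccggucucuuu
miR-29a-3p: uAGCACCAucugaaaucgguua
let-7c-5p: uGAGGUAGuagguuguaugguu
let-7a-5p: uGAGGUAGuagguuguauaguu
miR-125b-5p: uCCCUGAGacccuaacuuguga
let-7f-5p: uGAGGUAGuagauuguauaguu
let-7b-5p: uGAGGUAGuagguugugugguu
miR-29b-3p: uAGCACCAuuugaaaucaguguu
miR-26a-5p: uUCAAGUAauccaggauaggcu
miR-29c-3p: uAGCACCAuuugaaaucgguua
miR-9-3p: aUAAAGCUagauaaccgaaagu
miR-9-5p: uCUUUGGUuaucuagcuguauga
miR-3968: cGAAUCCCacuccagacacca
miR-132-3p: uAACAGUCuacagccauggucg
miR-29a-5p: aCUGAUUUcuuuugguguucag
let-7d-5p: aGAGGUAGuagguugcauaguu
let-7d-3p: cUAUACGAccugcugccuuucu
miR-34a-5p: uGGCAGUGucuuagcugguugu
miR-7a-5p: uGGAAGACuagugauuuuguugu
miR-574-5p: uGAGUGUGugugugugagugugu

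Of the 1247 entries, 402 (32.2%) were detected on all 3 arrays, 34 on 1 or 2 arrays and 811 (65.0%) on none. Among the 402, the mean signal ran from 185910 units to 8.71 units, a 21335-fold range, with a median of 125 units. The 3 dimmest entries detected on all 3 arrays were miR-330-5p, miR-665-3p and miR-491-5p, with means of 10.02, 9.80 and 8.71 units. The detection call did not follow the sum alone. The brightest entry detected on no array, let-7b-3p, gave 28.4, 23.9 and 27.3 units, above each of those 3, and it was followed by miR-290-3p (mean 20.7 units) and miR-680 (mean 20.3 units).

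**Figure D1:**
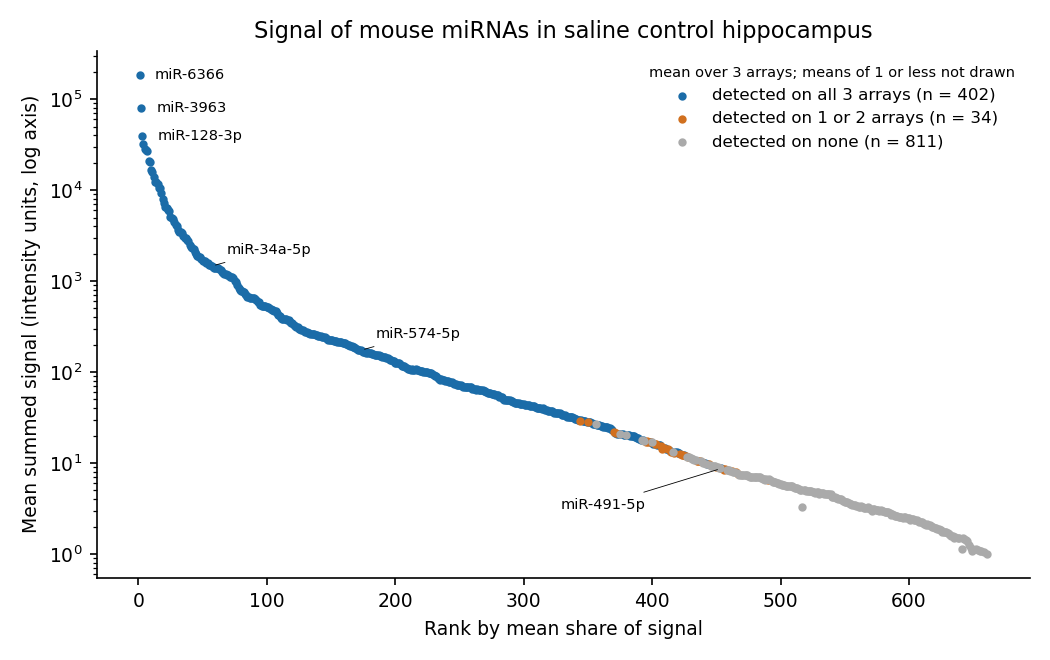
Mean signal over the 3 control arrays (log axis, intensity units) of each mouse miRNA against its rank by mean share, coloured by the number of arrays on which it was detected; entries with a mean of 1 unit or less are not drawn. The entries miR-6366 and miR-3963, stand above the rest of the curve, and detected and undetected entries mix at about 10 to 30 units.

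The signal was held by few entries. The 10 brightest took 60.4, 61.0 and 62.3% of the summed signal on replicates 1, 2 and 3 (61.3% ± 0.991, SD, n = 3), and the 20 brightest took 75.6% ± 0.444. The 6 brightest entries reached 50% of the signal, 56 reached 90% and 243 reached 99%.

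miR-6366 was the brightest entry on every array. Its signal was 174954, 189838 and 192938 units, or 21.5, 24.3 and 25.9% of the total. Its share was lowest on replicate 1, where the summed signal was highest. Its RefSeq locus is chr16:18165093-18165114 on the minus strand, outside the span of any other annotated gene. Its pair of probes has 11 and 12 bases with a G and C content of 81.8 and 83.3%. Both pair with the 3′ end of the mature sequence, from base 12 or 11 to base 22, and so do not read the seed. Probes of other bright entries also pair with the 3′ end, from base 7 or 8 for miR-132-3p and from base 1 or 2 for miR-29c-3p.

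miR-3963 came next on every array, with 81294, 75055 and 81134 units (10.2% ± 0.663). It lies at chr3:151023839-151023857, also outside the span of other annotated genes. Both were registered late, as their high numbers show, and the 20 brightest entries held 4 numbered 3000 or higher: this pair, miR-3968 (1.20% ± 0.0901) and miR-6243 (0.913% ± 0.151). Together the 4 held 33.7, 36.0 and 38.9% of the signal on the 3 arrays.

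Entries with high numbers were otherwise detected less often. Of the 322 entries numbered 3000 or higher, 59 (18.3%) were detected on all 3 arrays, against 343 of 925 (37.1%) with lower numbers. By class of number, the share detected was 52.0% for numbers below 200, 36.8% from 200, 26.2% from 500, 22.05% from 1000, 19.3% from 3000 and 17.5% from 5000. Entries numbered below 200, with let-7 counted there, held 53.0% ± 2.54 of the signal. The letters AUCCCA occur in the mature sequences of miR-3963 and miR-3968 and in that of miR-5100, at rank 25, and in 4 of the 1017 entries with a RefSeq sequence in all. The remaining entry, miR-191-5p, stood at rank 435 and was detected on 1 array. This motif was picked after the sequences were seen.

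Behind these, the brightest entry was miR-128-3p, a miRNA enriched in neurons, with 45330, 37321 and 35048 units (5.02% ± 0.472). It is made from a pair of loci, chr1:128202404-128202424 within the span of R3hdm1 and chr9:112118644-112118664 within that of Arpp21. Next came miR-29a-3p with 34112, 32167 and 29181 units (4.08% ± 0.138), let-7c-5p with 3.66% ± 0.353, miR-124-3p, the miRNA that defines neurons, with 30293, 27143 and 25120 units (3.53% ± 0.175), let-7a-5p with 3.43% ± 0.197, miR-125b-5p with 2.69% ± 0.140, let-7f-5p with 2.62% ± 0.118 and let-7b-5p with 2.14% ± 0.272. The rest of the 20 brightest were miR-29b-3p (2.02%), miR-26a-5p (1.79%), miR-29c-3p (1.58%), let-7g-5p (1.56%), miR-9-3p (1.51%), let-7d-5p (1.35%), miR-9-5p (1.34%) and let-7i-5p (1.04%). Each of these 8 had a share between 1 and 3%, with an SD of at most 0.118.

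The order was nearly the same on the 3 arrays. Of the 19 pairs of neighbours within the 20 brightest, 14 kept their order on every array. The neighbours that did not were let-7c-5p and miR-124-3p, let-7b-5p and miR-29b-3p, miR-29c-3p and let-7g-5p, let-7g-5p and miR-9-3p, and let-7d-5p and miR-9-5p, so no order can be read within them. Without the entries numbered 3000 or higher, an alternative chosen after the data were seen, the 10 brightest held 50.7% ± 1.01 of the remaining signal, led by miR-128-3p (8.21% ± 0.505), miR-29a-3p (6.67% ± 0.0681) and let-7c-5p (5.98% ± 0.333).

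**Figure D2:**
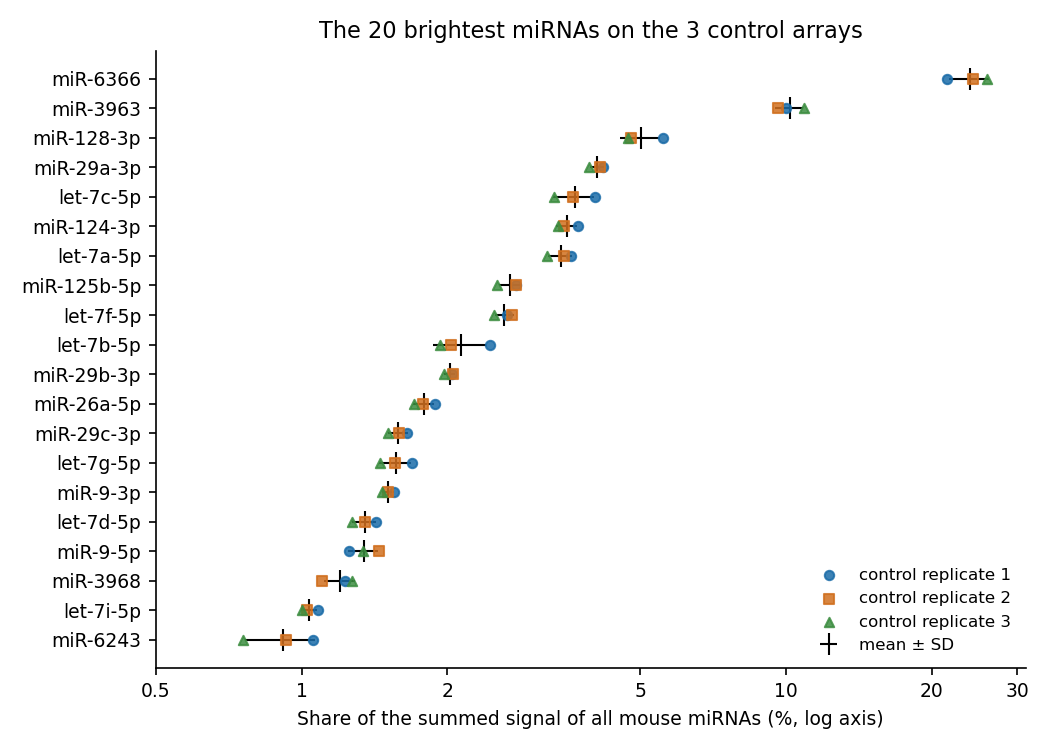
Share of the summed mouse miRNA signal (percent, log axis) of the 20 brightest miRNAs on each control array (points), with the mean and SD over the 3 arrays. miR-6366 lies at 21.5 to 25.9% and miR-3963 at 9.62 to 10.9%, and every other entry reaches at most 5.56%.

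How far such an order rests on the probes can be read from entries with more than 1 probe. Among 394 entries detected on all 3 arrays whose probes all had a positive signal, the brightest and the dimmest probe of the same miRNA differed by a median of 2.15-fold, and by over 10-fold for 30 of them. miR-3968 is an example. Its probes, 5′ to 3′, differ by the base at the 3′ end, here in capitals.
miR-3968 probe a: tggtgtctggagtg
miR-3968 probe b: tggtgtctggagtgG
The shorter probe gave 542, 433 and 492 units and the longer one 9465, 8142 and 8976 units, so that the added base went with an 18.1-fold higher signal. The ratio between the probes of a miRNA was steady, with a median SD over arrays of 0.06 on the log2 scale. Levels of the same miRNA on different arrays are therefore known more closely than levels of different miRNAs on the same array.

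Grouped by seed, 852 seeds were represented among the 1017 entries with a RefSeq sequence, which held 91.4% of the signal; miR-124-3p, miR-6243 and miR-5109 are named only. Among the entries with a sequence, the 6 brightest seeds held 66.5% ± 0.763 of the signal of all 1247 entries. miR-124-3p, which has no seed here, alone held more (3.53%) than the sixth of them (2.94%). Beside miR-6366 and miR-3963, which are alone in their seeds on this array, they were the seeds of let-7, miR-29, miR-128 and miR-125. GAGGUAG, the let-7 seed, held 16.8% ± 1.15 with 10 of 11 entries detected on all 3 arrays. let-7 holds back proliferation and is abundant in differentiated tissue. AGCACCA, the seed of the miR-29 family, held 7.68% ± 0.258, all of it in miR-29a-3p, miR-29b-3p and miR-29c-3p. CACAGUG was miR-128-3p alone, and CCCUGAG held 2.94% ± 0.145 in miR-125b-5p and miR-125a-5p, with 2 of 5 entries detected.

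Members of these families differ by few bases, so that probes may read a relative as well, and the size of this was not tested. Among the entries detected on all 3 arrays, 12 pairs of equal length differ by 1 base and 15 pairs by 2 bases. Some such pairs had like signals. miR-107-3p gave 5085, 5120 and 4433 units and miR-103-3p, which differs from it by 1 base, 4966, 5044 and 4400 units. Others were far apart. miR-204-5p gave 1612, 2603 and 2062 units and miR-211-5p, also 1 base away, 38.2, 55.7 and 44.6 units, a 45.0-fold lower signal that moved with it across the arrays. miR-19b-3p was 13.1-fold above miR-19a-3p, at 1 differing base.

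The base at the 5′ end, which sits in a pocket of the Argonaute protein, also varied with brightness. Among the 50 brightest entries with a sequence, 34 (68.0%) began with U and 1 each with C or G. U began 135 of 330 (40.9%) of the entries detected on all 3 arrays and 230 of 661 (34.8%) of those detected on none. The median G and C content was 47.8% in the former and 50% in the latter.

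The tissue label was set against lists of miRNAs known from particular cell types, counting both arms of each miRNA. The counts below stand beside 32.2% of all entries detected on all 3 arrays and 65.0% on none. Of the 24 entries of neuronal miRNAs, 17 were detected on all 3 arrays, and the list held 14.5, 13.7 and 13.4% of the signal. Its brightest members were miR-128-3p and miR-124-3p. The oligodendrocyte list had 4 of 5 entries detected and 0.360% ± 0.0552 of the signal, led by miR-338-3p (1995, 1410 and 1527 units) and miR-219-5p (844, 605 and 895 units). miR-122, which defines hepatocytes, was detected on no array (0 of 2 entries), nor was any of the 8 entries of the pancreas and endocrine list; with 65.0% of all entries detected on no array, little can be read from lists this short.

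miRNAs known from vascular and blood-borne cells were detected too, some of them among the 50 brightest entries. The endothelial miR-126 had both arms detected, with 3184, 2960 and 2711 units for miR-126-3p and 77.9, 80.1 and 76.9 units for miR-126-5p. The erythroid miR-451a gave 1558, 2030 and 1628 units, while miR-144-3p, which shares its precursor transcript, gave 11.9, 18.4 and 20.99 units and was detected on 2 arrays. In the microglia and leukocyte list 7 of 14 entries were detected, with miR-342-3p (2395, 2290 and 2106 units) far above miR-150-5p (292, 289 and 254 units). The myeloid miR-223-3p gave 65.4, 68.6 and 52.5 units and miR-142-3p, common to blood cells, 69.8, 76.8 and 68.2 units. Mural cell miRNAs had 2 of 5 entries detected, miR-143-3p (mean share 0.0249%) and miR-145a-5p (0.00733%). The embryonic stem cell list had 1 of 22 entries detected, miR-302c-5p, at 34.4, 52.1 and 48.8 units, with miR-290-3p undetected.

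A few lists differed between the arrays. The choroid plexus list, with 3 of 6 entries detected, held 0.214, 0.358 and 0.295% of the signal on replicates 1, 2 and 3, of which miR-204-5p was the most, followed by miR-211-3p (73.0, 69.1 and 49.6 units). The list of ciliated cells had 2 of 9 entries detected, with miR-34b-5p at 231, 361 and 272 units and miR-34c-5p at 171, 289 and 206 units. Both lists were highest on replicate 2 and lowest on replicate 1. The muscle list, with 3 of 17 entries detected, had the opposite order. In it miR-1a-3p gave 130, 74.3 and 107 units and miR-133b-3p 81.9, 46.4 and 60.4 units. The epithelial list had 4 of 20 entries detected, led by miR-429-3p (59.3, 33.0 and 36.1 units) and miR-200b-3p (57.5, 32.4 and 30.7 units), both highest on replicate 1. Whether the amount of such tissue in the dissected samples plays a part was not tested, and fewer cells of a type and less RNA per cell cannot be told apart.

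**Figure D3:**
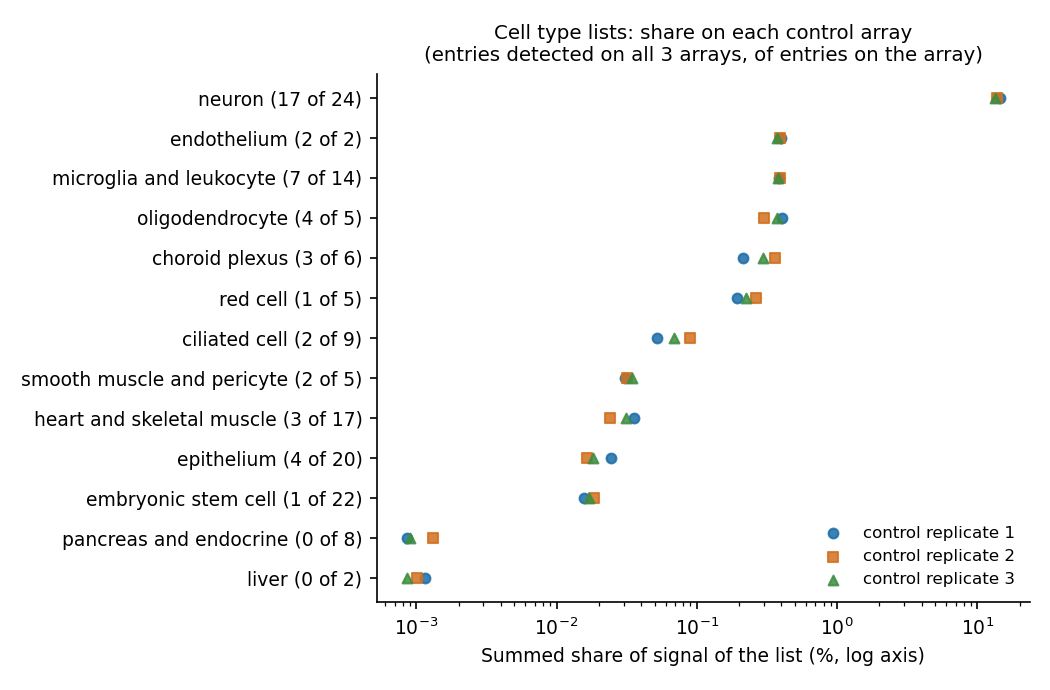
Summed share of signal (percent, log axis) of each cell type list on the 3 control arrays, with the number of entries detected on all 3 arrays out of those on the array. The neuron list lies at 13.4 to 14.5%, all others below 0.41%, and the choroid plexus and ciliated cell lists have replicate 2 highest and replicate 1 lowest.

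Several broadly expressed families were measured alongside. Their counts stand beside 32.2% of all entries detected on all 3 arrays, and little can be read from a count near that share. The let-7 and miR-98 list held 16.8% ± 1.15 with 14 of 22 entries detected, and the miR-29 list 7.74% ± 0.260 with 6 of 7. The lists of miR-125, miR-99 and miR-100 (3.55%, 8 of 11 detected), of miR-103, miR-107 and miR-15/16 (2.03%, 6 of 14), of miR-26 (1.98%, 2 of 5), of miR-23, miR-24 and miR-27 (1.52%, 7 of 11) and of miR-30 (1.45%, 10 of 12) followed. miR-181, which is prominent in neurons and lymphocytes, held 0.332% with 5 of 10 detected. The miR-17 family with its paralogous clusters, which promotes proliferation, held 0.220% with 10 of 27 detected, and its brightest member, miR-106b-5p, gave 414, 369 and 340 units.

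Among entries with a single annotated locus, 304 of 977 (31.1%) were detected on all 3 arrays. Chromosome 12, which has the most entries, stood highest in number, with 66 of 141 (46.8%). The percentage was higher, at 50%, on chromosomes 13 (14 of 28) and 17 (11 of 22). Most of the detected entries of chromosome 12 lie in the imprinted Dlk1-Dio3 region, whose maternal copy makes a long series of miRNAs in brain. The stretch chr12:109563710-109595387 held 15 detected of 23 entries, with miR-127-3p and miR-434-3p brightest, and the stretch chr12:109709065-109747949 held 35 of 70, with miR-494-3p and miR-300-3p brightest. They held 1.23% ± 0.0635 and 2.12% ± 0.121 of the signal. A stretch is a run of entries on the same strand with gaps of at most 10 kb. On the X chromosome 26 of 125 entries (20.8%) were detected. On chromosome 11 the stretch chr11:75173403-75173744 with miR-132 and miR-212, which neuronal activity induces through CREB, held 0.866% ± 0.137 of the signal.

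The arms of a precursor were compared where the array carried a 5p and a 3p entry of the same base name, which was the case for 422 precursors. Such a name can stand for several loci, as for miR-9 (Mir9-1, Mir9-2 and Mir9-3). miRNAs with an arm whose name carries a locus number, such as miR-128, miR-29b and let-7a, were not paired. Both arms were detected on all 3 arrays for 60 precursors, and for 169 exactly 1 arm was. Of these 169, the partner was detected on none of the arrays for 156 and on 1 or 2 arrays for 13. Both arms lie on the same array, so their ratio needs no scaling, but each arm has its own probes, and a ratio of signals is not a ratio of molecules.

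In the 60 precursors the ratio of 5p to 3p signal was tested against 1 with limma, with Benjamini-Hochberg adjustment over the 60. The test covers the spread between arrays and not differences between probes. It called 59 of 60 (98.3%), 29 with the 5p arm brighter (48.3%) and 30 with the 3p arm brighter (50%). The brighter arm was over 2-fold above its partner in 48 precursors and over 10-fold in 24, with a median of 5.76-fold. Another 11 were called at under 2-fold. Probes of the same miRNA differed by a median of 2.15-fold, so these 11 calls cannot be told from differences between probes.

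The largest difference was that of miR-29a. Its 3p arm gave 34112, 32167 and 29181 units and its 5p arm 30.2, 29.5 and 28.7 units. The log2 ratio of 5p to 3p was -10.07 ± 0.06 (SE, limma, adjusted p = 4.2e-18), a 1077-fold difference in signal. Next among the precursors with a brighter 3p arm were miR-124 (log2 ratio -8.15), miR-137, a regulator of neuronal maturation (-7.62), miR-127 (-6.88) and miR-153 (-6.02). miR-29c, whose 3p arm was also among the 20 brightest entries, had a smaller difference of -5.31.

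Among precursors with a brighter 5p arm, let-7d led. Its 5p arm averaged 10539 units and its 3p arm 24.6 units, a log2 ratio of 8.74 ± 0.06 (SE, limma, adjusted p = 1.03e-17). It was followed by miR-99a (7.74), let-7e (7.66), miR-30b (6.46) and miR-139 (5.23).

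miR-9 was the exception among the bright precursors that could be paired, with both arms among the 20 brightest entries. The 5p arm gave 10191, 11242 and 9955 units and the 3p arm 12662, 11767 and 10892 units. The log2 ratio was -0.17 ± 0.06 (SE, limma, adjusted p = 0.0238), but it was 0.09 when each arm was read from its brightest probe (adjusted p = 0.199), and the call was also lost without any 1 of the 3 arrays, with adjusted p from 0.0513 to 0.232. The order of the miR-9 arms is thus not settled. For miR-409, with arms at 183 and 186 units on average, no difference was called (log2 ratio -0.02, limma adjusted p = 0.726).

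Where the partner arm was detected on no array, the fold is a bound against the lowest detected signal of each array, or the partner's own signal where that was higher. The let-7g 5p arm was at least 1534-fold above its 3p arm, that of let-7i at least 727-fold and that of let-7b at least 626-fold. On the other side the 3p arm of miR-132 was at least 762-fold above its 5p arm and that of miR-107 at least 614-fold. Over the 156 precursors the median bound was 13.6-fold, and 26 had a bound over 100-fold. The brighter arm was the 5p arm in 71 of them and the 3p arm in 85.

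For 180 precursors with at least 1 arm detected on all 3 arrays and a RefSeq sequence of both arms, the base at the 5′ end of either arm was read. The brighter arm began with U in 85 (47.2%) and the dimmer arm in 39 (21.7%). In 70 precursors only the brighter arm began with U and in 24 only the dimmer one. The sequences of miR-29a printed above are of the former kind, with U at the start of the 3p arm and A at that of the 5p arm. In let-7d neither arm begins with U. C began 25 brighter and 56 dimmer arms.

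**Figure D4:**
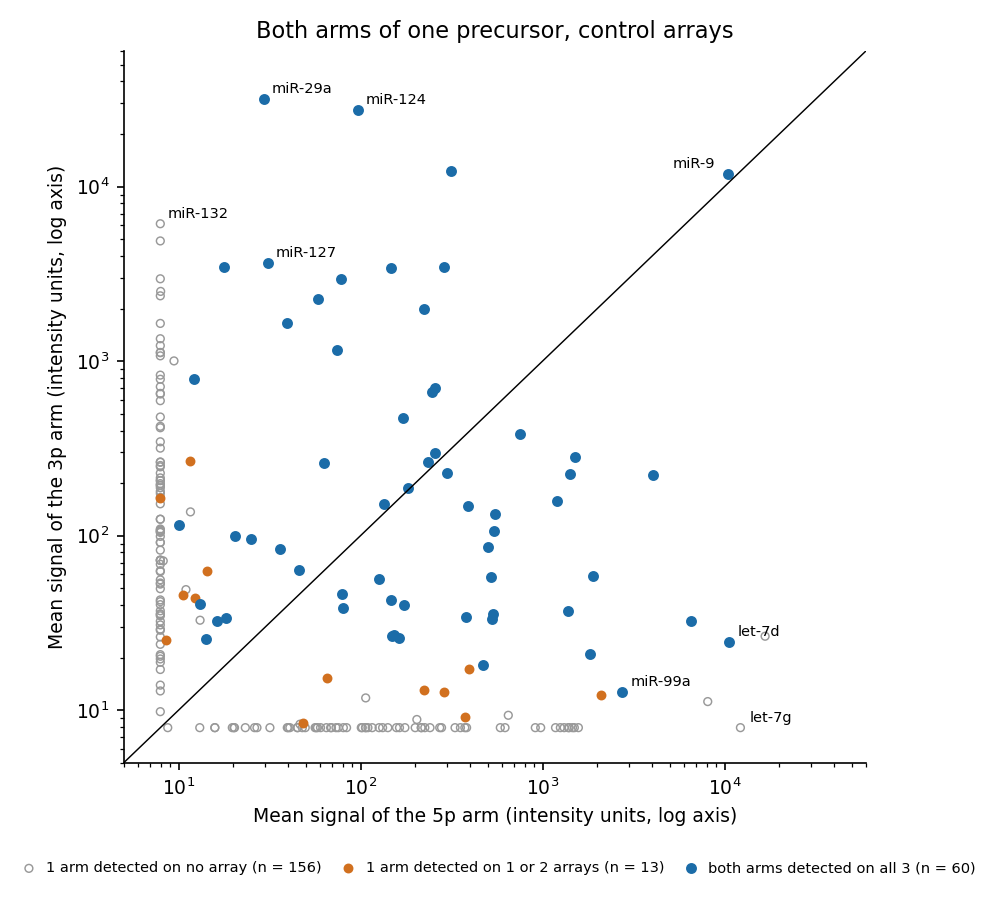
Mean signal of the 3p arm against the 5p arm of each precursor with at least 1 arm detected on all 3 control arrays (intensity units, log axes; arms under the lowest detected signal are drawn at it; line, equal signals). Precursors spread to both sides of the line, miR-29a and miR-124 far to the 3p side and let-7d and let-7g far to the 5p side, and miR-9 lies near it.

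The spread between the 3 arrays was small for most entries. After scaling each array by the 75th percentile of its 402 jointly detected entries, the SD of the log2 signal had a median of 0.12, or a coefficient of variation of 8.45%, and 6 entries exceeded 0.5. Pearson's r across the 402 entries was between 0.993 and 0.998 for the pairs of arrays, which share probes and so share their differences in brightness, and no spot had the same value on 2 arrays. The spread did not follow brightness evenly. The median SD was 0.15 for the 60 entries under 30 units, 0.14 from 30, 0.10 from 100, 0.09 from 300, 0.15 for the 40 entries from 1000 and 0.08 for the 35 entries of 3000 units or more. The error from replicate spots within an array was smaller, with a median of 0.02, and the SD between arrays exceeded it for 376 of the 402 entries (93.5%).

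Replicate 1 stood somewhat apart. It gave the highest or the lowest of the 3 scaled values for 336 of the 402 entries (83.6%). The count was 269 (66.9%) for replicate 2 and 199 (49.5%) for replicate 3. Of 3 values 2 are always the highest or the lowest. Arrays of like spread would thus each hold these places for about 2 of 3 entries. Without replicate 1 the median SD fell from 0.12 to 0.06. It also fell, by less, without either of the other arrays, and an SD over fewer arrays tends to come out lower.

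The entries with the largest spread were not the dimmest. miR-1298-5p gave 18.4, 76.6 and 49.2 units on replicates 1, 2 and 3, an SD of 1.09 on the log2 scale after scaling. miR-34a-5p, which p53 induces, gave 2165, 845 and 1369 units (SD 0.67), highest on replicate 1. The miR-7 family moved the other way. miR-7a-5p gave 694, 1425 and 1205 units (SD 0.59), and miR-7a-2-3p, the other arm of one of its precursors, 26.9, 58.1 and 48.8 units (SD 0.63). miR-7b-5p followed with 315, 603 and 502 units. miR-5110 completed the 5 largest with 48.3, 117 and 82.1 units (SD 0.67). In each of these but miR-34a-5p, replicate 1 was the lowest and replicate 2 the highest. miR-34b-5p and miR-34c-5p, relatives of miR-34a-5p from another locus, were highest on replicate 2, where miR-34a-5p was lowest.

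At the other end, miR-99b-5p gave 396, 389 and 356 units before scaling and an SD below 0.01 after it (0.0044), and miR-1983, miR-873a-5p, miR-30e-5p and miR-423-5p had an SD of 0.0087 to 0.013. The SDs of miR-99b-5p, miR-1983, miR-873a-5p and miR-423-5p lay below their error from replicate spots within an array (0.014, 0.051, 0.016 and 0.024). That of miR-30e-5p about equalled it (0.012). These smallest SDs therefore do not show that these miRNAs are steadier than others. Among the 20 brightest, miR-29b-3p had the smallest SD (0.02) and miR-6243 the largest (0.23), followed by let-7b-5p (0.18) and miR-6366 (0.15).

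**Figure D5:**
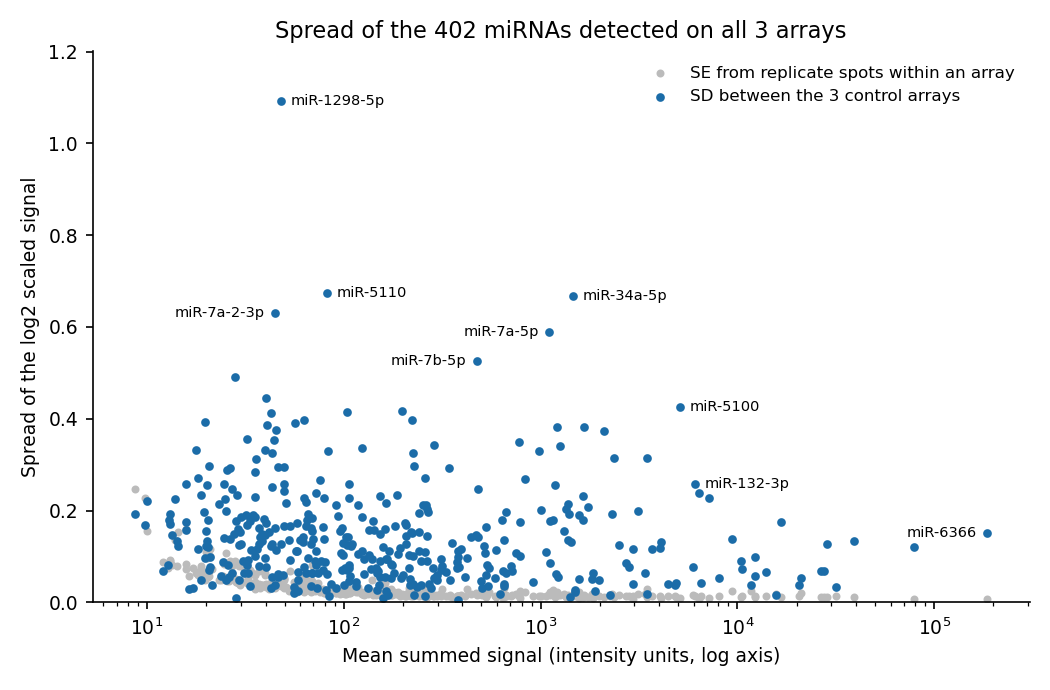
SD over the 3 control arrays of the scaled log2 signal (blue) and standard error from replicate spots within an array (grey) against the mean signal (intensity units, log axis) for the 402 miRNAs detected on all 3 arrays. Most SDs lie under 0.3, and miR-1298-5p, miR-5110, miR-34a-5p and the miR-7 entries stand above them.

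The study followed miR-574-5p and named other miRNAs in connection with BACE1, the enzyme that starts the cleavage of amyloid precursor protein, and with cognition. In control hippocampus miR-574-5p gave 179, 168 and 173 units (0.0222% ± 0.000866), at rank 173, and was called detected each time. It came from a pair of probes at 57.7 and 116 units on average, and its 3p arm was 4.39-fold dimmer in signal, at 44.6, 41.9 and 33.0 units.

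Of 37 entries of all these families, 26 were detected on all 3 arrays, 5 on 1 or 2 arrays and 6 on none. Over all 1247 entries, 32.2% were detected on all 3 arrays and 65.0% on none. The levels of the 37 entries covered a wide range. The 3p arms of the miR-29 family and both arms of miR-9 were among the 20 brightest, miR-132-3p stood at rank 23 with 7501, 5118 and 5747 units, and miR-107-3p at rank 26. miR-137-3p (2841, 4270 and 3308 units), miR-204-5p at rank 44 and miR-34a-5p at rank 57 followed. miR-212-3p, from the transcript of miR-132, gave 503, 431 and 483 units. Below miR-574-5p lay miR-188-5p (128, 111 and 80.6 units), miR-328-3p (88.9, 98.0 and 98.7 units) and miR-186-5p (63.6, 70.2 and 63.6 units). miR-298-5p, at 21.6, 19.2 and 23.0 units, was detected on 1 array.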

How the data were processed

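The labels name a pair of mirVana kits for RNA extraction, without saying which was used for the hippocampus, and give Cy3 labelling with the Agilent miRNA kit and one-colour Agilent mouse miRNA arrays; per the labels, spots were read with Agilent Feature Extraction 10.7. The scanner files that the authors deposited hold intensity values per spot, already background-subtracted in the processed signal. Their deposited log2 table is set on a scale whose making is not given in the sources used here. In it 374 of the 410 largest values were equal on the 3 control arrays within 0.001, each array in its own order, and every entry not detected on an array had that array's lowest value. It served as an alternative only.

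From the 3 control arrays, spots with outlier flags (3.76 to 4.59% of 49880) were left out, spots of a probe averaged and probes of a miRNA summed. Negative sums counted as 0 in shares. Detection was the gene call of the files. Where arrays were set side by side, each was divided by its 75th percentile over the 402 entries detected on all 3 arrays. Arm ratios were tested with limma 3.58.1 (R 4.3.3), an intercept with moderated variances, at an adjusted p of 0.05; the script was tested on simulated data. Tables were handled with Python 3.11.15. The number of arrays, 3, limits the precision.

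The total signal that the files give per miRNA was not used as the main value. For 106, 115 and 101 of the detected entries on replicates 1, 2 and 3 it matched no sum of the entry's own probe totals and equalled the file's total of the detected entry before it in name order (a control in 1 case on each array) plus the totals of some or all of the entry's own probes, within 0.006 units or 0.002% of the value, whichever was larger. All own probes entered the sum in 2, 0 and 1 of these cases, and in the others only some did.

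Sequences and coordinates are those of RefSeq (GRCm38.p6), matched by name for 1017 of 1247 entries. Of 2539 probes of matched entries, 2533 pair with a stretch of the RefSeq sequence. The 6 arrays of PM2.5-treated mice were not used. Members and lists were chosen with earlier results of these data known. The named miRNAs were the 20 brightest, the 5 precursors with the largest ratio in either direction and those with an arm among the 20 brightest, the 5 largest and 5 smallest SDs, the 2 brightest of each cell type list, the miRNAs named by the study, the 6 brightest seeds, and the 3 entries on either side of the detection call; others are named beside these for comparison and were chosen after their values were seen.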

Additional observations from a re-analysis of the deposited data

How the results depend on the processing

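Between groups no paired analysis was possible because arrays of 1 group only were used. The arm test did pair values, as both arms of a precursor were read on the same array. Of the 20 brightest entries, 20 stayed among the 20 brightest with normexp background correction, means over probes, outlier spots kept, the deposited table, own probe totals or any array left out, 19 with the brightest probe and 15 with the files' total signal. The share of the 10 and the 20 brightest (61.3 and 75.6%) was 52.0 and 67.4% from the files' total signal, 49.2 and 60.8% with normexp, whose offset of 50 units adds to every probe, 62.3 and 76.1% with the brightest probe, 64.4 and 77.1% in the deposited table and 50.7 and 69.3% without entries numbered 3000 or higher. With an array left out it was 60.7 to 61.7% and 75.3 to 75.7%. Of 220 shares of single entries among the 20 brightest under the alternatives, 69 moved by more than the SD between arrays. Entries detected on all arrays numbered 403 to 413 with an array left out, 436 on at least 1 array and 355 by spots well above background. Of the precursors with both arms detected, 47 to 58 of 60 were called under the alternatives, 55 to 58 without 1 array, and 224 of 229 with at least 1 arm detected, where more precursors are tested.

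With the files' total signal, 25 of 60 arm ratios changed sign, by its construction described among the methods. Of those named, the log2 ratio of 5p to 3p became -1.44 for let-7d, -0.69 for let-7e, -0.55 for miR-30b, -1.37 for miR-139, 0.00050 for miR-29a, 0.0059 for miR-137, 0.0051 for miR-127 and 0.017 for miR-153. That of miR-9 became 0.093 with the brightest probe. Summing each entry's own probe totals, an alternative added after the data were seen, left 2 sign changes, miR-505 and miR-337. Both also changed sign with means over probes, with the brightest probe and in the deposited table. The order of the arms of miR-505 and miR-337 is thus not settled. The ratio of miR-409, which was not called, changed sign in the deposited table and without control replicate 3. With normexp 7 ratios changed sign, those of miR-330, miR-872, miR-362, miR-532, miR-431, miR-211 and miR-433; its offset is added once for each probe, and in each of the 7 one arm has 4 probes and its partner 2. The median SD between arrays was 0.0617 to 0.111 with 1 array left out, lowest without control replicate 1, and 0.0585 with normexp, whose offset compresses low signals; it was 0.114 to 0.148 under the other alternatives.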

Other observations

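The total signal per miRNA in the scanner files deserves a look before it is used. On replicate 1 it was over 10-fold above the entry's own probe totals for 62 entries. For let-7d-3p it read 11976 where the own probes gave 5.14, and the entry before it, let-7c-5p, had 11973. For miR-29a-5p it read 12443 against 5.51, after 12439 for miR-29a-3p. Such totals occurred on all 3 arrays for 86 entries and on at least 1 for 130. The deposited log2 table did not carry it. Across the 402 entries detected on all 3 arrays its values correlated with the own probe totals at r = 0.991 to 0.995 and with the files' totals at 0.634 to 0.647.

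At low signal the error from replicate spots within an array was larger. Its median on the log2 scale was 0.07 under 30 units and 0.01 from 3000 units. Over the 402 entries the signal at the 25th percentile was 43.1 units, and the lowest detected signal on an array was 7.76 to 8.10 units. These are sums over the probes of an entry, and miR-330-5p, miR-665-3p and miR-491-5p, the dimmest detected on all arrays, have 4 probes each. The median over single negative control spots was 2.42 to 2.88 units, a value per spot that cannot be set directly against such sums.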
